A study of Bos taurus with 16 samples.

Results

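Heat-shock proteins are chaperones, proteins that hold other proteins in a soluble form, help them fold and hand misfolded ones on for degradation. The HSP70 family (HSPA genes) binds exposed stretches of client proteins in cycles of ATP hydrolysis that J-domain partners (DNAJ genes) start and nucleotide exchange factors end, and HSP90 (HSP90AA1, HSP90AB1) takes over clients such as kinases and steroid receptors at a later stage. Under heat or proteotoxic stress the transcription factor HSF1 raises the inducible members, whereas constitutive members such as HSPA8 are made in nearly all blood cells.

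The set held 10 genes, chosen as a list of symbols: HSPA8, HSPA1A, HSPA5, HSPA9, HSPD1, HSPH1, HSP90AA1, HSP90AB1, DNAJB1 and DNAJB6. Their symbols stood beside 40 of the 43653 probes of a bovine one-colour (Cy3) Agilent array, each probe a 60-base oligonucleotide. Expression was measured on 16 arrays of whole blood RNA from lactating Holstein Friesian cows, 4 arrays for each of 4 groups. The LPS group was blood of probiotic-fed cows at day 60 that received lipopolysaccharide (a bacterial cell wall component) at 100 ng/ml in the tube, the probiotic group was blood of the same arm at day 60 without it, the untreated group was blood at day 60 of cows given water, and the day 0 group was blood drawn before feeding began. The study enrolled 10 cows, 5 per arm; the oral pack held yeast culture with fermentation products of Enterococcus faecium, Lactobacillus acidophilus, Bacillus subtilis and Aspergillus oryzae. Before RNA extraction the blood stood at 37 °C under 5% CO2 for 30 min, in the 4 groups alike. The RNA was pooled by group, so the 4 arrays of a group were repeat hybridisations of 1 pool, and every p-value below measures the spread between such arrays and not between cows. The titles of the day 0 arrays name no arm, and whether that pool held all 10 cows or the probiotic arm only was not given. Which arrays shared a slide was not read, so effects of slide and of group cannot be told apart. The LPS and probiotic arrays shared a scan day, and the untreated and day 0 arrays had another each.

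The arrays read whole blood RNA, and markers of its cells were looked up. By the software's call, HBB (a globin), S100A12 (neutrophils), LYZ (monocytes) and CD79A (B cells) lay well above background on all 4 arrays of each group. Many other markers did not. In LPS, probiotic, untreated and day 0 blood, 5, 3, 1 and 3 of 6 neutrophil markers did so. In that order it was 3, 4, 2 and 2 of 4 monocyte and 4, 4, 3 and 4 of 5 B cell markers. For platelets it was 0, 2, 0 and 0 of 3 on the array, and for erythroid cells 1 of 5 in each group. All 5 T cell markers did so in probiotic blood and none of the 5 in untreated blood. Of 6 genes listed as not of blood, CSN2 was well above background on all arrays of each group, and MYH7 on all LPS and probiotic arrays. In untreated blood each of the 6 was so on at least 1 array. Their summed net signal was 605 to 2749.5 units on LPS arrays and 480 to 1579 on probiotic arrays. It was highest on untreated arrays, at 3669.5 to 5800 units, against 735 to 1133 on day 0 arrays. Summed net signal of the 6 neutrophil markers ranged between 1505 and 81300 scanner units on LPS arrays, 61822 and 91288 on probiotic arrays, 722 and 5182 on untreated arrays and 2289 and 21271 on day 0 arrays. The share of all probes well above background was 22.4% to 41.9% on LPS arrays, 26.3% to 36.9% on probiotic arrays, 11.9% to 17.8% on untreated arrays and 8.22% to 23.0% on day 0 arrays. In pooled blood, fewer cells of a type and less RNA per cell cannot be told apart.

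Of the 10 genes, 7 had a probe that was well above background on all measured arrays of at least 1 group and could be tested, with 15 such probes among them. HSPA9 (the mitochondrial HSP70), HSPH1 (an HSP110 that acts as exchange factor for HSP70) and DNAJB1 (the J-domain partner of stress-induced HSP70) had none. The probes printed here carry the tests of HSPA5, DNAJB6 and HSPA1A, or stand beside another probe of their gene that carries its test, so that a reader can see where targets differ or overlap. Those of HSPA8, HSPA5, HSPD1 and DNAJB6 are, in the authors' probe names and 5′ to 3′ as deposited, in lower case throughout since no overlap with another probe of the set was found:
HSPA8 A_73_115239: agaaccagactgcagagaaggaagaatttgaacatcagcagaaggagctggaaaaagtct
HSPA8 A_73_P403651: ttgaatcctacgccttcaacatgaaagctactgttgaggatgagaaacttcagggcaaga
HSPA5 A_73_P038581: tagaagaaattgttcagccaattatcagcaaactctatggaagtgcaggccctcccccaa
HSPD1 A_73_P094781: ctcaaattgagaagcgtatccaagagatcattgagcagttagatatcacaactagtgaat
DNAJB6 A_73_P258426: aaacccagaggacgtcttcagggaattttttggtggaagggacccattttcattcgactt

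For 3 pairs of probes the targets overlapped, and the longest run of bases shared by a pair, of 29 bases in the first pair, 31 in the second and 27 in the third, is in capitals:
HSPA1A A_73_P275126: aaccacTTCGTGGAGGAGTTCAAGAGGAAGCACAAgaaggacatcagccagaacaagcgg
HSPA1A A_73_P268106: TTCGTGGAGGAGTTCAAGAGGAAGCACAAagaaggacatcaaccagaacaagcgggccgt
HSP90AB1 A_73_P103306: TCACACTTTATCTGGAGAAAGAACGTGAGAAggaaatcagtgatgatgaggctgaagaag
HSP90AB1 A_73_P267531: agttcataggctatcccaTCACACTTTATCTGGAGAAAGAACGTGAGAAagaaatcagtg
HSP90AB1 A_73_P475368: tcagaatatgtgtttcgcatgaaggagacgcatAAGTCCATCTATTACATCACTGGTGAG
HSP90AB1 A_73_P102006: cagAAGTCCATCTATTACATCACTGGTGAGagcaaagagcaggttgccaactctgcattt

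The 40 probes had a GC content of 35.0% to 60.0%, with a median of 45.0%, which was also the median over all 43653 probes. The 15 testable probes had a median GC content of 43.3%, and the other 25 one of 45.0%. The RefSeq table gives HSPA1B and HSPA2 as further names of HSPA1A, and near-identical copies of this gene cannot be told apart by its probes. A further probe carried the symbol HSPA2 and a description of HSPA1A; it was outside the list of symbols and was left out.

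HSPA8, the constitutive cytosolic HSP70, was bright and steady in probiotic blood and dim on most arrays of untreated blood. Probe A_73_P341276, the brightest kept HSPA8 probe, had net signals of 38470, 41105, 37290 and 1516 scanner units on LPS arrays 1 to 4. On probiotic arrays 1 to 4 it had 39415, 38228, 36108 and 34554 units, on untreated arrays 7.06, 34.6, 70.1 and 5177 units, and on day 0 arrays 8589, 9147, 9196 and 2363 units. Array 4 was the lowest of the LPS and of the day 0 arrays. Of the untreated arrays, array 4 was the highest and the only one well above background. The probiotic and untreated arrays did not overlap. Within each array this probe stood at the 98.9th to 99.6th percentile of all probes on LPS arrays, at the 99.5th to 99.7th on probiotic arrays, at the 52.2nd to 99.8th on untreated arrays and at the 99.5th to 99.7th on day 0 arrays. Its rank was thus nearly the same on probiotic and day 0 arrays although its net signal there differed.

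HSPA8 probe A_73_115239 had 11701, 12210, 11514 and 222 units on LPS arrays, 11106, 11182, 11046 and 7768 units on probiotic arrays, 33.0, 51.6, 68.4 and -17.7 units on untreated arrays, and 2564, 2528, 2185 and 154 units on day 0 arrays. On untreated array 4 it was not above background, where A_73_P341276 had read 5177 units. The 2 probes of this gene thus read that array differently.

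The other 4 HSPA8 probes lay in the middle rows of the array and did not follow these 2. A_73_P403651 had 0.0553, 568, 4.29 and 11.5 units on LPS arrays, 3539, 4442, 5525 and 1290 units on probiotic arrays, 3.27, -6.00, 0.590 and 1918 units on untreated arrays, and 1.11 to 6.01 units on day 0 arrays. It was well above background on all probiotic arrays, on LPS array 2 and on untreated array 4. A_73_P448151 was well above background on probiotic array 1, with 841 units, and on untreated array 4, with 641 units. A_73_P334021 had 147, 532, 3523 and 24.5 units on LPS arrays and 12.1 to 42.5 units on probiotic arrays. A_73_P100171 was well above background on LPS array 3, with 96.1 units, and on untreated array 2, with 495 units.

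**Figure D1:**
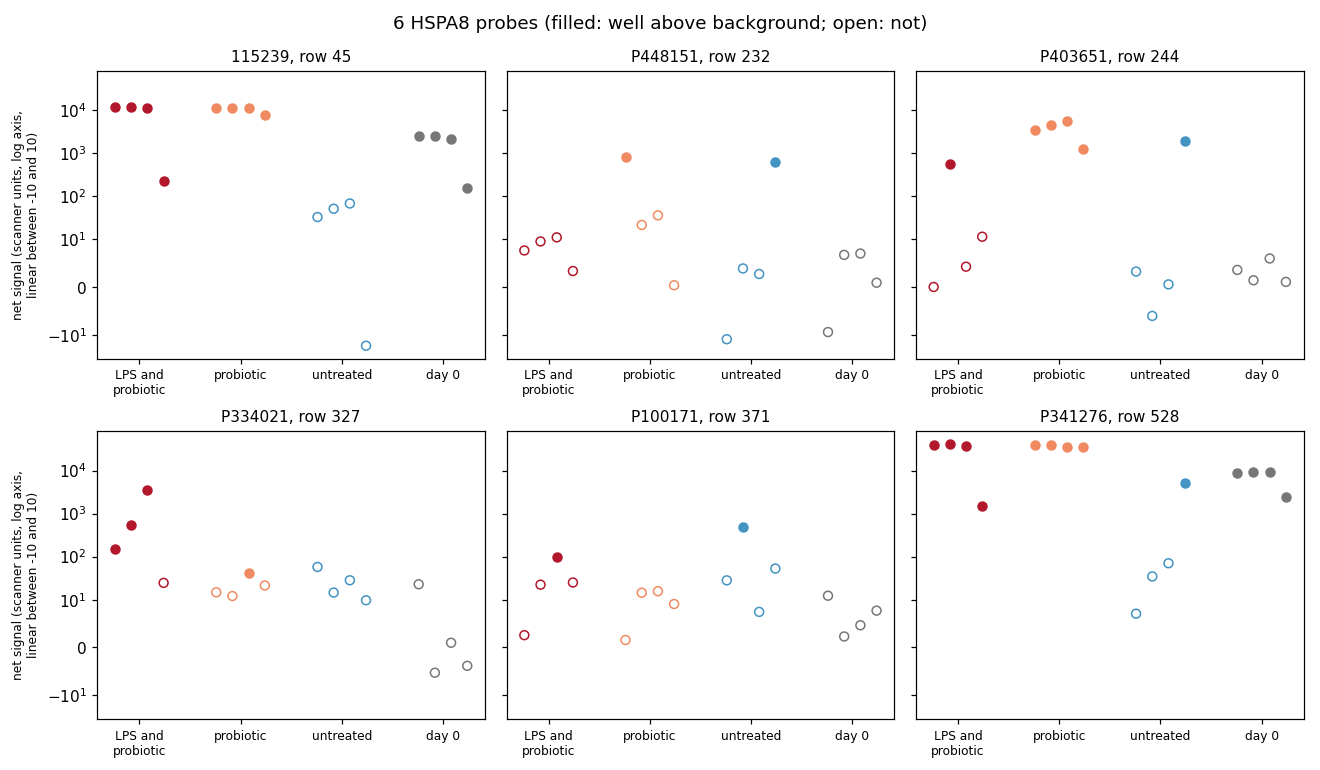
Net signal (scanner units, log axis that is linear between -10 and 10) of the 6 HSPA8 probes, 1 point per array, in the LPS and probiotic, probiotic, untreated and day 0 groups; filled points were well above background. A_73_P341276 and A_73_115239 kept the same order of groups, whereas the 4 probes of the middle rows lit on different arrays of 1 pool.

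HSP90AA1, the stress-inducible cytosolic HSP90, gave the clearest separation of untreated blood. Probe A_73_103158 had 15856, 18071, 17242 and 943 units on LPS arrays, 16958, 16880, 16223 and 14728 units on probiotic arrays, -4.25, 43.5, 7.25 and 16.5 units on untreated arrays, and 2548, 2471, 2444 and 906 units on day 0 arrays. None of the untreated arrays was well above background for it, and all others were. Its probe A_73_P129021 had 9464, 7183 and 155 units on the 3 LPS arrays left after a spot of array 2 was set aside as an outlier, 8485, 8728, 8239 and 4642 units on probiotic arrays, 93.7, 77.2, 956 and -56.6 units on untreated arrays, and 2246, 2247, 1833 and 56.6 units on day 0 arrays. This one was well above background on untreated array 3. Its other kept probe, A_73_P103241, read 228, 960, 202 and 111 units on LPS arrays, 751, 298, 274 and -0.962 units on probiotic arrays, -21.9, -17.6, 17.5 and 137 units on untreated arrays and 1898, 523, 228 and 29.6 units on day 0 arrays, so its groups overlapped. Of its remaining 3 probes, A_73_P311796 was well above background on LPS arrays 1 to 3, A_73_P225557 on LPS array 3 and A_73_P449761 on no array.

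HSPD1, the mitochondrial chaperonin HSP60, had 5 probes, of which 3 were kept, each with its lowest group mean (of scaled log2 signal) in untreated blood. A_73_121148 had 4203, 5222, 3075 and 335 units on LPS arrays, 4536, 4013 and 1942 units on the 3 probiotic arrays with a usable spot, 50.1, 43.1, 7.90 and 233 units on untreated arrays, and 909, 922, 837 and 89.5 units on day 0 arrays. A_73_P094781 had 944, 1144, 1075 and 14.7 units on LPS arrays, 995 to 1044 units on probiotic arrays, -9.07 to -0.910 units on untreated arrays, and 397, 420, 415 and 40.3 units on day 0 arrays. A_73_P129801 had 3397, 3426, 3475 and 32.4 units on LPS arrays, 2870 to 3280 units on probiotic arrays, -8.58 to -5.99 units on untreated arrays, and 643, 690, 630 and 50.3 units on day 0 arrays. For A_73_P094781 and A_73_P129801 no untreated array was well above background, while each probiotic and day 0 array was. The other 2 HSPD1 probes were dim: A_73_P260436 had 17.0 to 119 units on LPS arrays and -3.23 to 2.86 units on probiotic arrays, and A_73_P303616 was well above background on untreated array 2 and day 0 array 1.

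HSPA5, the HSP70 of the endoplasmic reticulum (BiP), and DNAJB6, a J-domain protein known for holding back protein aggregation, were steady in probiotic blood. HSPA5 probe A_73_P038581 had 1703, 1666, 1542 and 1011 units on LPS arrays, 1752, 1780, 1687 and 1450 units on probiotic arrays, 35.0, 114, 772 and 108 units on untreated arrays, and 476, 466, 430 and 188 units on day 0 arrays. Untreated arrays 2 and 3 were well above background for HSPA5, and array 3 reached a higher net signal than any day 0 array. DNAJB6 probe A_73_P258426 had 591, 593, 523 and 381 units on LPS arrays, 596, 549, 581 and 491 units on probiotic arrays, 64.7, -1.75, 1.00 and 19.7 units on untreated arrays, and 73.6, 68.0, 65.5 and 35.7 units on day 0 arrays. None of its untreated arrays was well above background. HSPA5 probe A_73_P210427, where LPS array 2 was set aside, had 643, 590 and 11.6 units on LPS arrays 1, 3 and 4, 393 to 619 units on probiotic arrays, 0.676 to 72.2 units on untreated arrays, and 135, 148, 132 and -2.84 units on day 0 arrays. HSPA5 probe A_73_102684, in row 312, was well above background on LPS and probiotic arrays 1 to 3 and on no other array, and A_73_P400026 on none. Of the other DNAJB6 probes, A_73_P089741 was so on untreated array 3, with 311 units, and A_73_P034141 on no array.

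HSPA1A, the stress-induced cytosolic HSP70, showed how probes with overlapping targets could part. Probe A_73_P275126 had 470, 568, 566 and 42.6 units on LPS arrays, 500, 479, 475 and 442 units on probiotic arrays, 74.1, -18.2, 11.2 and 199 units on untreated arrays, and 76.8, 77.5, 73.2 and 16.8 units on day 0 arrays. It was well above background on 12 of 16 arrays. A_73_P268106, which shares the 29-base run printed above, was well above background on 4 arrays, LPS 2 and 3 and probiotic 1 and 3, and on no day 0 array. A_73_P359866, on the same array row as A_73_P268106, had 335, 1175, 2548 and 79.7 units on LPS arrays, 1490, 1309, 1456 and 5.57 units on probiotic arrays, -3.95 to 38.6 units on untreated arrays and -11.4 to 0.799 units on day 0 arrays. A_73_P474283 was well above background on probiotic array 1 and untreated array 4, and A_73_104629 on no array.

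HSP90AB1, the constitutive cytosolic HSP90, had 6 probes, none of them in the outer rows. Its 2 overlapping probes of rows 251 and 264 were well above background on the same arrays. A_73_P267531 had 315, 1208 and 5139 units on LPS arrays 1 to 3, with array 4 not well above background, 2502, 2065, 2469 and -1.67 units on probiotic arrays, -15.0 to -1.44 units on untreated arrays and 5.90 to 19.2 units on day 0 arrays. A_73_P103306 had 112, 818, 154 and -9.65 units on LPS arrays, 1696, 1352, 1582 and -2.40 units on probiotic arrays, -17.8 to 0.0651 units on untreated arrays and 10.6 to 17.7 units on day 0 arrays. The overlapping pair A_73_P475368 and A_73_P102006, 2 rows apart, was likewise well above background on probiotic arrays 1 to 3 and LPS arrays 2 and 3, and A_73_P102006 on LPS array 1 as well. On probiotic array 4 these 4 probes had -3.77 to 0.0359 units, so none of them met the rule of being above background on all arrays of a group.

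The 1 HSP90AB1 probe that met it, A_73_P040031, was lowest in probiotic blood, where those 4 had been bright on 3 arrays. It had 68.9, 153, 62.2 and 155 units on LPS arrays, -5.77, 1.22, -7.25 and -6.16 units on probiotic arrays, -42.9, 235, 125 and -44.6 units on untreated arrays, and 14.4, 62.0, 46.3 and 37.3 units on day 0 arrays. The remaining probe, A_73_P226217, was well above background on untreated array 3 alone. The gene's test therefore rests on a probe that disagreed with the 4 others in probiotic blood. That probe was kept through the LPS group alone, so its LPS against probiotic difference draws on the values that let it in.

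The 3 untested genes were at or near background on most arrays. HSPA9 probe A_73_P051966 was well above background on LPS array 1, with 220 units, and LPS array 3, with 1302 units, against -6.10 and 3.52 units on the other 2 LPS arrays, and on no array of another group; its second probe never was. HSPH1 was well above background on LPS array 1 alone, with 48.6 units, against -8.56 to -1.44 units on probiotic arrays. DNAJB1 probe A_73_110248 had 30.4, 114, 389 and 12.1 units on LPS arrays and 0.810, 101, 106 and 9.71 units on probiotic arrays, with none above background on untreated or day 0 arrays. As the 4 LPS arrays held 1 pool, these readings differ between hybridisations and not between animals.

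**Figure D2:**
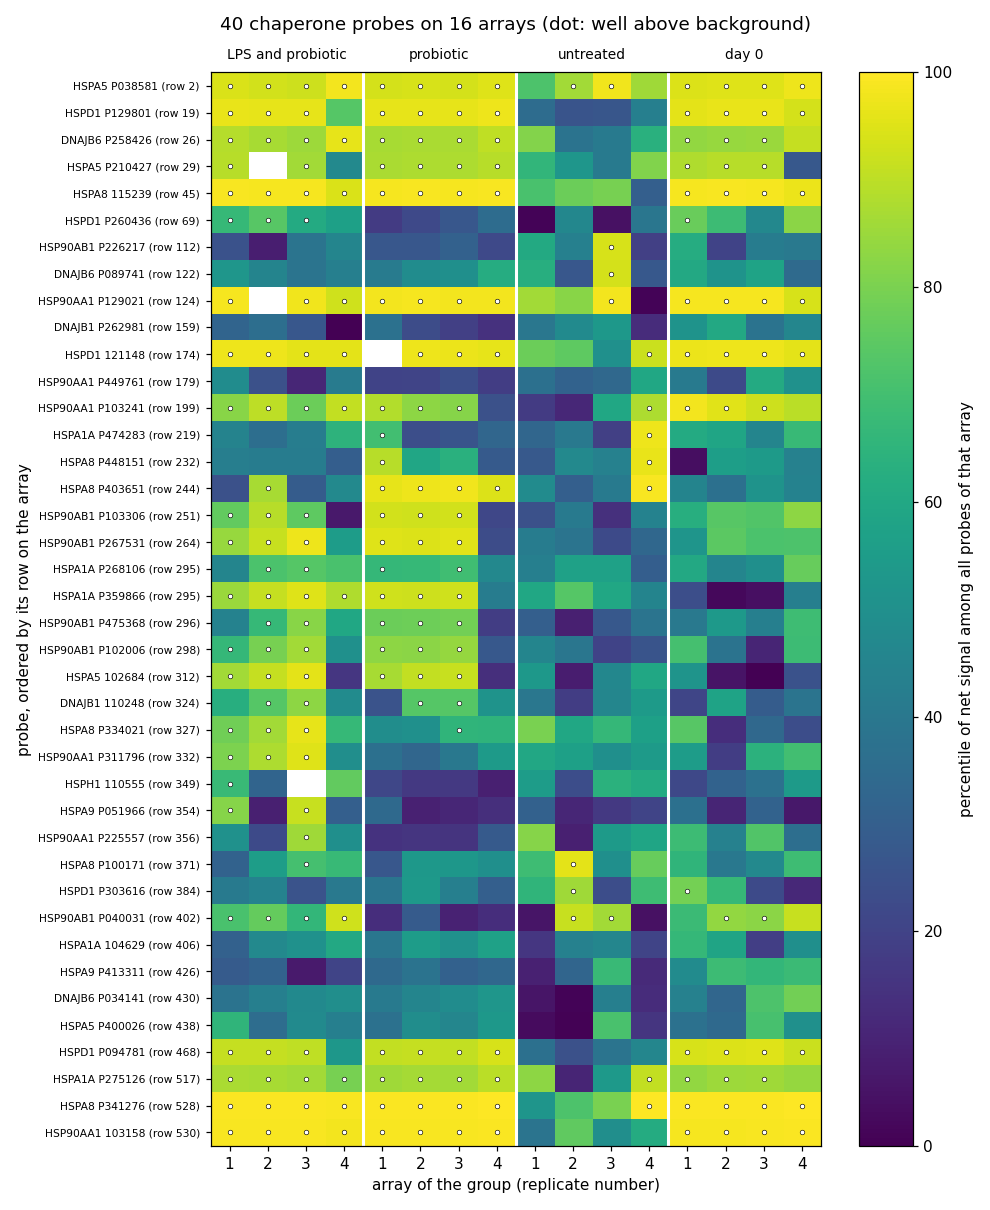
Percentile of net signal among all probes of an array (colour, 0 to 100) for the 40 chaperone probes, ordered by row on the array, on the 16 arrays in the order LPS and probiotic, probiotic, untreated and day 0; dots mark spots well above background and white cells spots set aside. The 8 probes nearest to either end of the array are bright on all 4 probiotic arrays, and those in between are often bright on some arrays of a pool only. The percentile serves to follow 1 probe across arrays and sets no probe's level against another's.

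In probiotic blood, probes near the ends of the array were above background on all 4 arrays more often than those in between, among chaperone probes and among all probes. The array has 532 rows; 8 of the 40 probes lay in rows 1 to 56 or 477 to 532, called outer rows here after the data were seen, and 32 in between. All 8 outer probes were well above background on all 4 probiotic arrays, against 3 of the 32 others; over all probes these shares were 54.3% of 8725 outer probes and 16.1% of 34928 others. On all 4 untreated arrays 0 of the 8 and 0 of the 32 were so, beside 6.45% and 5.35% of all probes. Over arrays 1 to 3 the median SD of log2 signal was 0.156 for 8 outer and 0.200 for 7 other kept chaperone probes in probiotic blood, and 0.740 and 0.669 in untreated blood. For all kept probes of the outer and the other rows it was 0.165 and 0.204 in probiotic blood, and 0.355 and 0.425 in untreated blood. Across all 8725 probes of the outer rows, pairs of arrays 1 to 3 had a median Spearman correlation of 0.980 between LPS and probiotic arrays, 0.944 between probiotic and day 0 arrays, 0.253 between probiotic and untreated arrays and 0.649 among untreated arrays. In the other rows these medians were 0.732, 0.502, 0.300 and 0.558. These correlations run over probes, not independent replicates, of arrays with 1 scanner and design. The part of slide position in the readings was not tested.

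The untreated arrays did not share their bright chaperone probes. Of the 40 probes, 21, 20, 22 and 12 were well above background on probiotic arrays 1 to 4, against 0, 4, 5 and 7 on untreated arrays 1 to 4. Of the measured chaperone probes these were 53.8%, 50%, 55% and 30%, against 0%, 10%, 12.5% and 17.5%. Over all probes the shares were 36.9%, 32.5%, 35.3% and 26.3%, against 11.9%, 17.5%, 17.8% and 12.7%. In untreated blood 12 were above background on 1 untreated array, 2 on 2 arrays and none on 3 or 4. Over all probes of the array, 14.7% were so on 1 untreated array, 4.88% on 2, 4.36% on 3 and 5.57% on 4.

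Changes between groups were tested on log2 net signal minus each array's 75th percentile, with limma over all 9415 genes that had a kept probe. To pass, a gene needed a change of 2-fold or more and a p below 0.05 after Benjamini-Hochberg adjustment. A ± gives the standard error in log2 units unless marked SD. For a chaperone gene of the set with no array of 1 group well above background, the fold is a bound that sets that group at the lowest signal called well above background, or at its own signal where that was higher. No bound was computed for the listed partners or the alternative settings, whose changes are given as fitted.

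Probiotic against untreated blood at day 60 asks what feeding changed. All 7 testable chaperone genes passed, 6 higher and 1 lower, in a comparison in which 68.3% of all tested genes passed, 50.2% higher and 18.1% lower. The median change was 3.22 over the 7 genes and 1.59 over all genes. With so many genes past the threshold, the 7 calls show nothing particular to chaperones. HSP90AA1 averaged 7.30 ± 0.56 in probiotic blood and -0.79 ± 0.64 in untreated blood (SD, n = 4 arrays each), a difference of 8.10 ± 0.54 that makes it at least 70.9-fold higher (limma, adjusted p = 7.6e-09). On untreated arrays 1, 3 and 4 its value was the surrogate. The untreated SD thus rests largely on surrogates, which enter the standard error and the p as well. HSPA8 averaged 8.50 ± 0.58 in probiotic blood and 1.54 ± 3.55 in untreated blood (SD, n = 4 arrays each), a difference of 6.95 ± 1.23 (limma, adjusted p = 0.00018). The SD in untreated blood reflects the single bright array 4. HSPD1 rose by 4.91 ± 0.82. DNAJB6 rose by 3.22 ± 0.52, at least 2.42-fold higher, with surrogates on untreated arrays 2, 3 and 4. HSPA5 rose by 2.43 ± 0.68 and HSPA1A by 2.21 ± 0.72. The HSPA1A call was lost without untreated replicate 2 (1.74, limma adjusted p = 0.052) or 3 (1.71, adjusted p = 0.053). HSP90AB1, by A_73_P040031, fell by 4.01 on the log2 scale (standard error 0.86), at least 3.24-fold lower. Its values were surrogates on each probiotic array and on untreated arrays 1 and 4. With its brightest probe in place of that kept one, HSP90AB1 was 3.67 higher (limma, adjusted p = 0.016), so its direction depends on the probe.

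**Figure D3:**
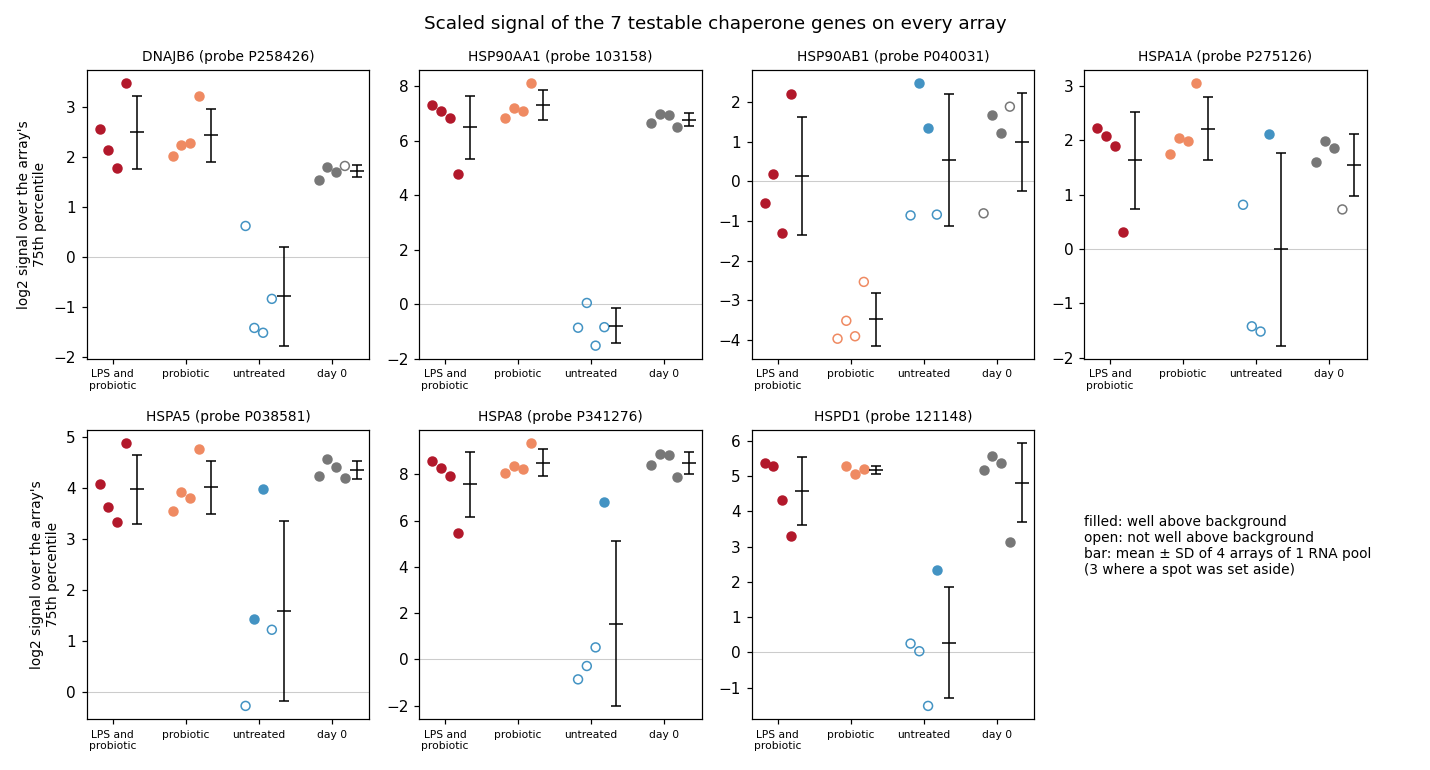
Log2 net signal over the array's 75th percentile for the 7 testable genes, 1 point per array in the LPS and probiotic, probiotic, untreated and day 0 groups, filled where well above background, with the mean ± SD of the arrays of 1 pool. For HSP90AA1 and DNAJB6 all 4 untreated points are open and lie below every other point; for HSPA8 1 untreated array lies near the other groups.

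The outer rows gave a narrower result. Scaled to their own 75th percentile, which brought the median of all genes to 0.01, HSP90AA1 was 5.70 ± 0.42 higher, HSPA8 4.55 ± 1.11 higher and HSPD1 3.68 ± 0.59 higher in probiotic than in untreated blood, all past the threshold. HSPD1 was read there from A_73_P129801 in place of A_73_121148. Each untreated value of A_73_P129801 was a surrogate, which enters the size and the standard error. HSPA5, HSPA1A and DNAJB6 did not pass there, with differences of 0.03 ± 0.77, -0.18 ± 0.56 and 0.83 ± 0.63. In this setting 3 of 6 chaperone genes passed, beside 62.2% of 4361 genes, of which nearly as many were lower (31.0%) as higher (31.2%).

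Other genes of the chaperone network came from 8 lists of partners. Of their 62 tested genes 42 rose, 6 fell and 14 did not pass, with a median of 2.98, in a comparison in which 50.2% of all genes rose and 18.1% fell, with a median of 1.59; the lists were not refitted under other scalings. All 7 tested HSP90 partners rose, among them UNC45A (5.09 ± 0.65), a myosin-folding co-chaperone, and FKBP5 (4.88 ± 0.93), an immunophilin of steroid receptor complexes. Of 15 J-domain proteins, 10 rose and 1 fell; DNAJA1 (6.14 ± 0.84), a cytosolic HSP70 partner, and DNAJC7 (5.59 ± 0.42) led, and DNAJC14 fell by 3.08. Of 13 endoplasmic reticulum chaperones, 10 rose and 1 fell: the lectin chaperones CALR (8.08 ± 0.56) and CANX (5.49 ± 0.86) rose, and HYOU1, an HSP110 of the same compartment, fell by 2.07. Of 10 genes of the TRiC chaperonin and prefoldin, which fold actin and tubulin, 6 rose and 1 fell, with CCT2 at 7.03 ± 0.42, PFDN4 at 4.71 ± 0.78 and PFDN1, which fell by 3.25. Of 8 cytosolic HSP70 partners 4 rose, led by the exchange factor HSPBP1 (5.41 ± 0.36) and the ubiquitin ligase STUB1 (4.39 ± 0.90), and BAG3 fell by 5.09. Of 2 mitochondrial genes, GRPEL1, the exchange factor of HSPA9, rose by 2.47 ± 0.61, and HSPE1, the HSP10 lid of HSPD1, fell by 3.31, whereas HSPD1 rose. HSPE1 was well above background on no probiotic array and on 1 untreated array, so its fall lies between mostly dim readings. HSPB8 rose by 4.12 ± 0.75 and HSPB6 fell by 1.88 among 3 small heat-shock proteins. Of 4 genes of the heat-shock factors and their regulator, 3 rose, among them HSBP1 (3.41 ± 0.96) and HSF2 (3.03 ± 0.66). FKBP5, STUB1, CANX, GRPEL1 and HSF2 were well above background on 4 arrays in the probiotic group alone. Their rises thus draw on the values that let them in. No untreated array was well above background for these, nor for CALR, CCT2, DNAJA1, DNAJC7, HSPBP1 and PFDN4. No probiotic array was so for BAG3, HSPE1 and PFDN1. Sizes of these changes rest on dim readings in 1 group.

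Untreated blood at day 60 was also set against the day 0 pool. That pool may not hold the untreated cows, so a change over time and a difference between cows cannot be told apart. This comparison shares the untreated arrays with the comparison above. Of the 7 chaperone genes 5 fell, none rose and 2 did not pass, where 57.6% of all tested genes passed, 42.8% lower and 14.8% higher. HSP90AA1 fell by 7.55 on the log2 scale (standard error 0.54), at least 48.7-fold lower, and HSPA8 fell by 6.95 (standard error 1.23). HSPD1 fell by 4.54, HSPA5 fell by 2.77 and DNAJB6 fell by 2.51, at least 1.47-fold lower for DNAJB6. HSPA1A (-1.55 ± 0.72, limma adjusted p = 0.078) and HSP90AB1 (-0.45 ± 0.86) did not pass; without array 4 of the untreated group HSPA1A passed, at -2.25 (limma, adjusted p = 0.0085). The 7 genes had a median of -2.77 and all genes one of -1.21. On the software's detrended signal, which differed from net signal on 3 day 0 arrays, 1 of 7 passed, and HSPA5 (3.63), HSPA1A (3.54) and DNAJB6 (5.35) were on the higher side instead. In the outer rows 3 of 6 fell, HSP90AA1 (-5.63), HSPA8 (-5.02) and HSPD1 (-3.51, by A_73_P129801), where 58.9% of genes passed, 29.9% lower and 29.0% higher. Of the 62 listed partners 4 rose, 42 fell and 16 did not pass, with a median of -2.70. The largest falls named by list were those of CALR (-7.89), CCT2 (-6.75), DNAJA1 (-5.74) and HSPBP1 (-5.41), whereas PFDN1 rose by 2.89, DNAJC14 by 2.51, HSPB6 by 2.37 and HYOU1 by 1.47. All 7 tested HSP90 partners fell, among them UNC45A (-4.81) and AHSA1 (-4.54), an activator of the HSP90 ATPase. CALR, CCT2, DNAJA1, HSPBP1 and AHSA1 had no untreated array well above background, and PFDN1 no day 0 array. HSF1, the main heat-shock transcription factor, fell by 3.27, and HSPB1 (HSP27) fell by 3.13.

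Probiotic blood was also set against the day 0 pool, whose cows may not all be those fed. Among the 7 chaperone genes HSP90AB1 passed, lower, and the other 6 did not, where 7.16% of all tested genes passed, 4.13% lower and 3.03% higher. By A_73_P040031 it fell by 4.47 (standard error 0.86), at least 4.44-fold lower (limma, adjusted p = 0.0055), and its brightest probe gave 3.15 (adjusted p = 0.055) with the opposite sign. Each probiotic value of A_73_P040031 was a surrogate, which enters the standard error and the p. Of its day 0 arrays 2 were well above background. The other 6 genes lay between -0.34 ± 0.68 for HSPA5 and 0.72 ± 0.52 for DNAJB6, with HSPA8 at 0.00 ± 1.23; the median of all genes was 0.39. This count rests on the scaling: 7 of 7 passed on the detrended signal, 6 higher and 1 lower, where the median of all genes was 4.48, and 4 of 7 with scaling to the median, where it was 2.08. With quantile normalization 0 of 7 passed and HSP90AB1 was at -3.52 (limma, adjusted p = 0.090); after normexp and quantile normalization it was at -1.63 (limma, adjusted p = 0.156) and again 0 of 7 passed. In unscaled net signal, means of arrays 1 to 3 of the 8 outer probes were 3.81-fold to 8.35-fold higher in probiotic than in day 0 blood, with a median of 4.72-fold, and the median over all 3539 outer probes above background on those arrays was 4.96-fold. HSPA8 A_73_P341276 was at 4.22-fold and DNAJB6 A_73_P258426 at 8.35-fold, where the 10th and 90th percentiles of those probes were 2.67-fold and 7.69-fold, so DNAJB6 lay above that range and the other 7 probes within it. In the outer rows none of 6 chaperone genes passed (limma), where 0.780% of genes did, and none had an unadjusted p under 0.05. Of the 62 listed partners none rose and 2 fell, BAG3 (-7.64) and HSPE1 (-5.05). BAG3 was kept through the day 0 group alone and HSPE1 through the LPS group alone, and neither was well above background on any probiotic array.

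LPS-treated against LPS-free blood of the fed cows asks what endotoxin added in the tube changed, and is the 1 comparison within a scan day. None of the 7 chaperone genes passed (limma), where 1.27% of all tested genes did, 1.08% higher and 0.191% lower. Of the 7, HSP90AB1 had an unadjusted p under 0.05. HSP90AB1 was 3.62 ± 0.86 higher by A_73_P040031, at least 2.46-fold (limma, adjusted p = 0.053). Its LPS arrays had 62.2 to 155 units and its probiotic arrays -7.25 to 1.22 units. A_73_P040031 was kept through the LPS group alone, so its values and p-values here describe what let it in. Each of its probiotic values was a surrogate. By the gene's brightest probe the difference was -0.31. The other 6 lay between -0.94 ± 1.23 for HSPA8 and 0.06 ± 0.52 for DNAJB6, beside a median of -0.52 over all genes. Leaving out LPS replicate 3 let HSP90AB1 pass (4.09, limma adjusted p = 0.048), as did adjustment over probes in place of genes (limma, adjusted p = 0.042). Over 18 alternatives its adjusted p ran from 0.031 to 0.996 (limma). In unscaled net signal over arrays 1 to 3, the LPS to probiotic ratio of 7 outer probes lay between 0.940 for HSPA5 and 1.099 for HSPA1A, with 1.03 and 1.06 for the 2 HSPA8 probes and 1.02 for HSP90AA1. Over all 4928 such probes the ratio's 10th and 90th percentiles were 0.769 and 1.21. In the outer rows none of 6 passed (limma), none had an unadjusted p under 0.05, and 0 of 4361 genes passed, 52 of them at an unadjusted p under 0.05.

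Probes of HSPA8 differed here. A_73_P403651 stood at -1.94 in LPS-treated blood against 4.99 in LPS-free blood on the scaled log2 scale, and at 4.99 in probiotic against -1.38 in day 0 blood. It was kept through the probiotic group alone, so these differences, which were past the threshold in a fit over 12230 probes of which 1.74% and 8.02% passed, are a description of the values that let it in. A_73_P341276 and A_73_115239 passed in neither comparison. Of the listed partners, HSPE1 alone passed with LPS, 5.42 ± 0.86 higher, in the comparison of the group through which it was kept; BAG3 and the 60 other tested genes did not.

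**Figure D4:**
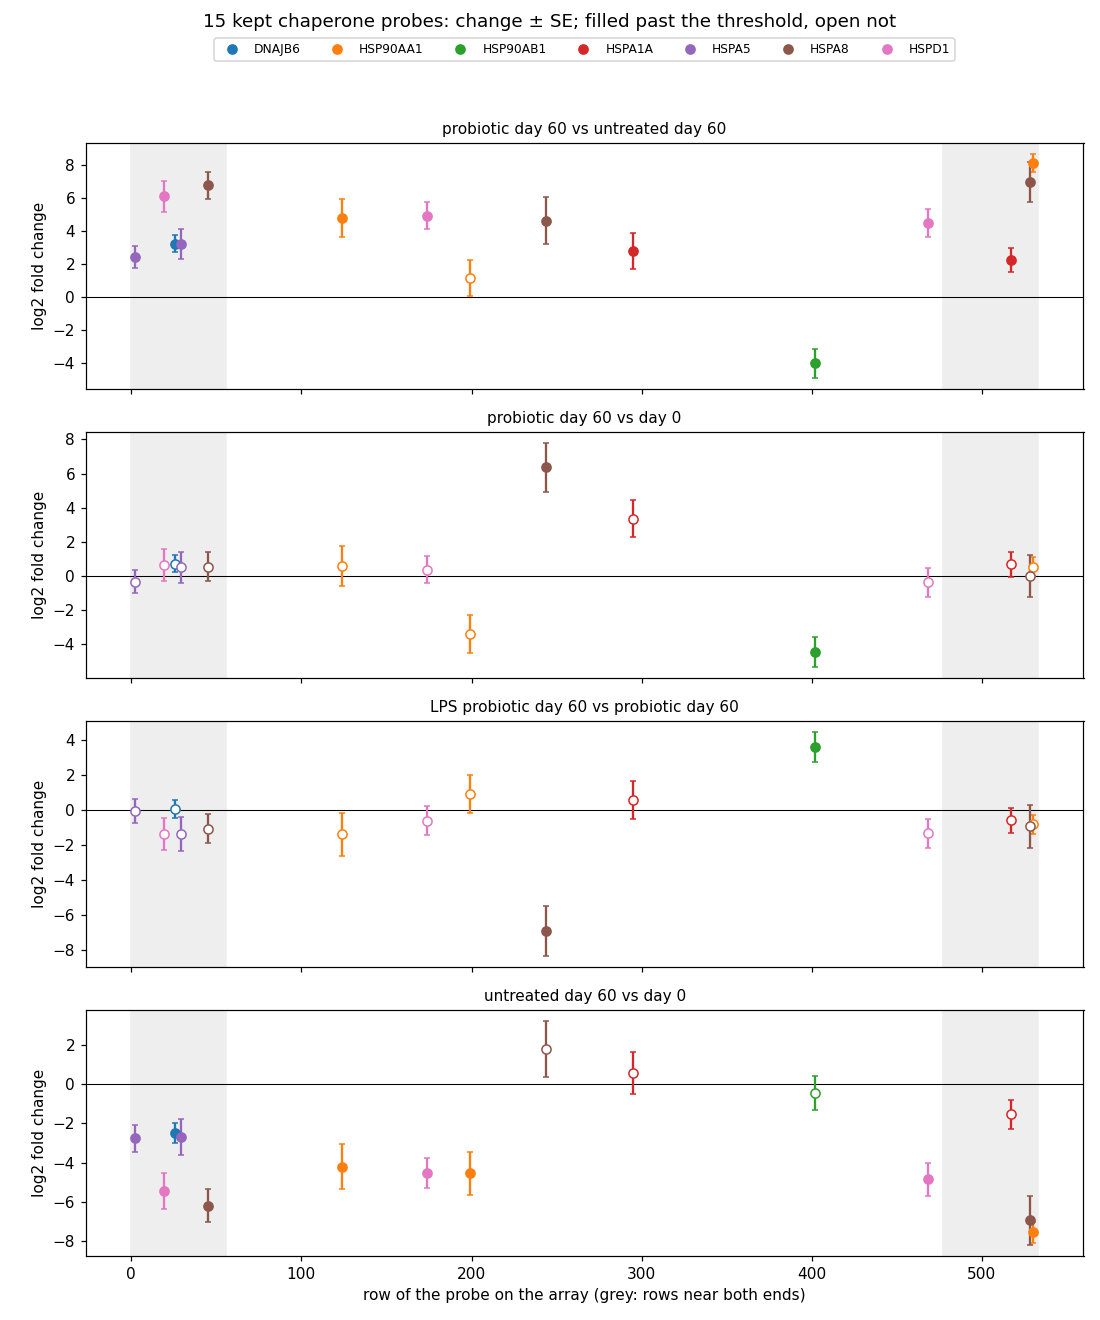
Log2 fold change ± standard error of the 15 kept chaperone probes in the 4 comparisons, plotted by the probe's row on the array (1 to 532), filled where the probe passed; grey marks the outer rows. For probiotic against day 0 and for LPS against probiotic no probe in grey is filled; the filled points there are HSPA8 A_73_P403651 in row 244 and HSP90AB1 A_73_P040031 in row 402.

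By the level pattern over the 16 arrays, the genes most like HSPA8 outside the set were SP140L (Pearson r = 0.992), TREML2 (0.989), SELENOT (0.989), RPL23A (0.988) and ANXA1 (0.988). Arrays of a pool are repeats, so these 16 points hold 4 pools, and brightness of the arrays enters each r. The probes of SP140L, TREML2 and SELENOT lay in rows 527, 490 and 524, near HSPA8 in row 528, and those of RPL23A and ANXA1 in rows 214 and 417.

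The authors' deposited table holds 1 averaged log2 value per probe and group. Over 9415 genes, LPS minus probiotic in the authors' deposited table differed from the same difference of the detrended processed signal by a median of -0.0092 (10th and 90th percentiles -0.0092 and -0.0092), and untreated minus day 0 in it by a median of -0.016 (-0.016 and -0.016). Between those pairs of groups the authors' deposited table departed by gene, by -5.35 to 1.73 (10th and 90th percentiles) for probiotic minus untreated blood and by -7.93 to 3.11 for the 7 chaperone genes. For most genes the scale within each pair is thus that of the detrended signal, the centring across the pairs is unknown, and values of the authors' deposited table are not comparable between them.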

How the data were processed

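Per the labels, RNA with an integrity number above 7 was pooled by group and 0.5 µg labelled with Cy3. Each array has a deposited scanner output, from Agilent Feature Extraction 10.10.1.1 per the submitters' processing notes. The deposited net signal used here is an intensity from which local background was taken and which was not yet brought to a common level across arrays. On day 0 arrays 2, 3 and 4 and LPS array 4 the software's processed intensity also carried a spatial detrending factor, seen as a ratio of processed to net signal other than 1. Its 5th and 95th percentiles were 0.194 and 493, 0.199 and 232, and 1.63 and 1399 on those day 0 arrays. On LPS array 4 they were 0.231 and 18.2. Net signal was therefore used instead, with the software's surrogate for spots not significantly above background. A deposited table gives 1 log2 value per probe and group, which the authors averaged. The other deposited columns used are 0 or 1 calls of the software.

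Outlier and control spots were left out, spots of 1 probe averaged, and log2 signal scaled to each array's 75th percentile. A probe was kept when well above background on all measured arrays, at least 3, of a group, and a gene was read from its kept probe with the highest mean over the 16 arrays. One limma 3.58.1 fit (lmFit and eBayes, R 4.3.3) covered all 16 arrays and 9415 genes, two-sided, and was tested on simulated data. The files lack a mean spot signal, so normexp (offset 50) used the median one. Figures were drawn with matplotlib 3.10.9. Gene names were updated through a RefSeq table of assembly ARS-UCD2.0 (27135 probes by accession, 6338 by symbol, 124 by synonym; 1382 kept the file's name and 8674 had none); no positions are given, since the array was designed on another build. The members, the lists of partners and the tests were chosen with earlier results of these data known. Named genes are all members, and from each list up to 2 risen and 2 fallen genes with the largest change in a comparison. The 5 genes whose scaled signal correlated best with HSPA8 over the 16 arrays are named as a description. Alternatives were other signals, scalings and filters, leaving out arrays and the replicate number as a block; the outer rows and leaving out array 4 of each group were chosen after seeing the data. The 4 arrays per group limit the precision.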

Additional observations from a re-analysis of the deposited data

Results flagged for a closer look

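One of 27 sets of 4 arrays, over the 7 tested genes and 4 groups, held an array far from the other 3: HSPD1 (A_73_121148) on day 0 array 4 stood at 3.14 on the scaled log2 scale, with 89.5 units of net signal, against 5.17 to 5.56 on the other day 0 arrays. Chance alone flags about 1 set in 20.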

How the results depend on the processing

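The number of the 7 chaperone genes that passed is given here in the order probiotic against untreated, probiotic against day 0, LPS against probiotic and untreated against day 0; it was 7, 1, 0 and 5 as reported. It became 4, 7, 0 and 1 on the detrended processed signal, 7, 4, 0 and 5 with scaling to the median, 5, 1, 1 and 3 with scaling on probes well above background on all 16 arrays, 5, 0, 0 and 5 with quantile normalization, 5, 0, 0 and 4 with normexp and quantile normalization, 7, 0, 0 and 5 with no filter, 7, 1, 1 and 5 with the mean of kept probes, 3, 0, 0 and 3 of 6 in the outer rows, and 7, 1, 0 and 6 without array 4 of every group. By fold alone the authors' deposited table gave 1, 6, 6 and 5, of which the first and second set columns of unlike centring against each other. Leaving out 1 array at a time gave 6 to 7, 1 to 1, 0 to 1 and 5 to 6. Replicate numbers did not pair the samples: same-numbered arrays correlated in their deviations at -0.24 to 0.64, 6 of 24 pairs over 0.1. All 4 were over 0.1 between LPS and day 0 arrays, which are not compared here, 2 of 4 between LPS and probiotic arrays, and none in the other 3 comparisons made; the replicate block gave 7, 1, 1 and 5. HSPA8, HSP90AA1 and HSPD1 passed between probiotic and untreated blood in each refit of the scanner signals listed here, HSPD1 by A_73_P129801 in the outer rows. Over all genes, higher and lower calls in that comparison were 4727 and 1701 as reported, 6541 and 429 with median scaling, 2378 and 3392 with scaling on probes above background everywhere, 1723 and 569 on the detrended signal and 4927 and 15088 with no filter; the median of all genes was 1.59, 3.50, -0.28, 1.59 and -2.03. For untreated against day 0 the calls were 1396 and 4029 as reported, 2529 and 33 on the detrended signal and 3726 and 1591 with scaling on probes above background everywhere; for probiotic against day 0 they were 285 and 389 as reported, 6721 and 315 on the detrended signal and 3821 and 230 with median scaling.

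Some log2 differences changed sign; the cause was not tested. For probiotic against untreated, HSPA1A became -0.18 in the outer rows and HSP90AB1 3.67 with no filter, which read another probe; the authors' deposited table gave HSPA5 -0.82, HSPA1A -1.26, HSPA8 -0.091, HSPD1 -0.18 and DNAJB6 -0.43. For probiotic against day 0, HSPA5 became 6.06 on the detrended signal, 1.35 with median scaling and 0.076 with the mean of probes; HSPD1 -0.013 with quantile, -0.051 with normexp and -0.20 without array 4 of every group; HSPA8 -0.032 with normexp, -0.47 in the outer rows and -0.49 without array 4; HSP90AA1 -0.77 with the mean of probes; and HSP90AB1 3.15 with no filter. There the authors' deposited table gave HSPA5 2.79, HSP90AA1 -1.46, HSPA8 -1.73 and HSPD1 -0.56. For LPS against probiotic, DNAJB6 became -1.10 on the detrended signal, -0.34 with median scaling and -0.015 without array 4; HSPA5 0.38 with scaling on probes above background everywhere, 0.32 with quantile, 0.29 with normexp and 0.58 in the outer rows; HSPA1A 0.035 in the outer rows and 0.14 without array 4; HSP90AA1 0.033 and HSPA8 0.042 without array 4; and HSP90AB1 -0.31 with no filter. There the authors' deposited table gave DNAJB6 -1.11. For untreated against day 0, the detrended signal gave HSPA5 3.63, HSPA1A 3.54 and DNAJB6 5.35, scaling on probes above background everywhere HSPA1A 0.52 and HSP90AB1 1.62, the outer rows HSPA1A 0.38, and leaving out array 4 HSP90AB1 0.30; the authors' deposited table gave HSPA5 3.62, HSPA1A 3.53 and DNAJB6 5.27. Leaving out 1 array at a time moved HSPA8 between -0.28 and 0.15 and HSPD1 between -0.19 and 0.62 for probiotic against day 0, HSPA5 between -0.34 and 0.22 and DNAJB6 between -0.27 and 0.32 for LPS against probiotic, and HSP90AB1 between -1.10 and 0.012 for untreated against day 0.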
